A study of Homo sapiens with 8 samples.

Results

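The genes described here are those through which cells make cholesterol and fatty acids under control of the sterol regulatory element binding proteins (SREBPs), measured in U373 astrocytoma cells treated with progesterone, the antiprogestin RU-486, or both. The members were listed by symbol: 35 genes, of which 24 belong to the sterol arm and 11 to fatty acid synthesis, among 18417 genes measured. All 35 had a probe set that the platform annotation pairs with a single symbol, and the probe set with the highest mean stood for the gene where there was more than 1. U373 is an established human astrocytoma line, and the labels do not say how its identity was checked. Cells were held in medium with hormone-free serum and then treated for 12 h with vehicle, 10 nM progesterone, 1 µM RU-486 (mifepristone, which also blocks the glucocorticoid receptor), or 10 nM progesterone together with 1 µM RU-486. All 4 groups shared the hormone-free serum, and each had 2 arrays, 8 in all. The drug is called RU-486 in the sample titles, while the source names give the compound another number and a further field shortens the name of the cell line. The replicates are titled biological with no word on separate cultures, and p-values therefore reflect only how far these samples differ, which may be technical. In RNA pooled from a culture, fewer cells making a transcript and less transcript per cell cannot be told apart.

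SREBPs are made as precursors in the membrane of the endoplasmic reticulum, where they are bound to the escort protein SCAP. When membrane sterol is low, SCAP carries them to the Golgi, proteases release the transcription factor domain, and that domain binds sterol regulatory elements beside CCAAT and GC boxes in target promoters. When sterol is plentiful, INSIG proteins hold SCAP back. SREBP-2, the product of SREBF2, acts mainly on sterol genes, whereas the SREBP-1c form from SREBF1 acts mainly on fatty acid genes and is itself induced by liver X receptors, the sensors of oxysterols. Astrocytes make much of the cholesterol of the brain, and progesterone at high doses is known to disturb the movement of cholesterol from lysosomes to the endoplasmic reticulum.

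Promoters of the members were examined because they hold the sequence through which SREBPs are known to act. The genes were listed as SREBP-driven, a status that for many rests on such elements, so that a higher share of motifs than among all genes is partly built into the list. RefSeq promoters (build GRCh38.p14, 250 bases before to 50 bases after a start) matched 31 of the 35 members, all but SQLE, FASN, SCARB1 and ACAT2. The SREBP core, searched as CACNCCA on both strands, was found in at least 1 promoter of 14 of these 31 genes (45.2%), against 20.6% of all 27305 genes with a promoter and 17.6% of all promoters. The CCAAT box, searched as CCAAT on both strands, was found for 22 of 31 genes (71.0%), against 39.7% of all genes and 34.6% of all promoters. Both motifs stood in the same window for 13 members (41.9%), against 7.28% of all genes, and in no member window did they overlap. The GC box (GGGCGG, both strands) was found for 30 of 31 members and 48.3% of all genes (45.0% of promoters), and the E-box CACGTG for 4 of 31 and 8.77% of all genes (7.26% of promoters). The 27305 genes were not limited to those measured on the arrays or expressed in these cells, and the part of this in the shares was not tested. Genes with several starts had several chances of a match, and a match is a description of letters, not of binding.

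4 of these windows are printed 5′ to 3′ on the gene's own strand, with the SREBP core and the CCAAT box in capitals on whichever strand they matched. They belong to STARD4 (chr5:111512486-111512785, minus strand), the member whose expression differed most between the groups; to INSIG1 (chr7:155297628-155297927, plus strand), a feedback gene; to SREBF2 (chr22:41832855-41833154, plus strand), the sterol regulator; and to MSMO1 (chr4:165327419-165327718, plus strand), the sterol enzyme with the smallest p under progesterone. The STARD4 window held 2 CCAAT boxes and 0 cores by this search, and the INSIG1 and SREBF2 windows held 1 of each. MSMO1 held 1 core and 4 CCAAT boxes.
STARD4: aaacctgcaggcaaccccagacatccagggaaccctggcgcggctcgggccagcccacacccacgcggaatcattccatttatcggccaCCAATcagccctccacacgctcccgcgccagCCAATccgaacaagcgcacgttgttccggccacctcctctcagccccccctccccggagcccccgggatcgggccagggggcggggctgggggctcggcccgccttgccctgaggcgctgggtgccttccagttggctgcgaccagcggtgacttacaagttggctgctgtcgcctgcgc
INSIG1: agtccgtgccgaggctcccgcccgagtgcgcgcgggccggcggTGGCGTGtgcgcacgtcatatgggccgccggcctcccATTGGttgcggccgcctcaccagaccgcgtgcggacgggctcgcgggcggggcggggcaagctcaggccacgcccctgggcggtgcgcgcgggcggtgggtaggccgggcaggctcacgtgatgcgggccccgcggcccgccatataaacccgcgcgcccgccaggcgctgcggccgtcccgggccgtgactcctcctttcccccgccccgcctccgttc
SREBF2: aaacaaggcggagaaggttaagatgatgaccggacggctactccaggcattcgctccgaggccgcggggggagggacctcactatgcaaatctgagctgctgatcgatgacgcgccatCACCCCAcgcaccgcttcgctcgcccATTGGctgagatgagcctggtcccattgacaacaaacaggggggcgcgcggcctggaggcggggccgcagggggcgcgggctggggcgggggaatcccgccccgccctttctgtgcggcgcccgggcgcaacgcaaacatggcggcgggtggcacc
MSMO1: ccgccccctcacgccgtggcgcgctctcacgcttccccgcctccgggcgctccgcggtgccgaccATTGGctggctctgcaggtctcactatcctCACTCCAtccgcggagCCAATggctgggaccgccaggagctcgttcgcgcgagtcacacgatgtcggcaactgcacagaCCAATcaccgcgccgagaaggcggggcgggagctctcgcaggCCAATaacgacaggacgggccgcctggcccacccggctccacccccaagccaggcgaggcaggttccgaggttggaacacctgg

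Values are log2 expression per probe set, as deposited. The 8 array medians over all 33297 probe sets ran from 6.93 to 7.02, and 0 pairs of arrays were identical. The replicates after progesterone lay farther apart than the others: 2176 of all genes differed by more than 0.5 between them, against 127 to 450 in the other groups. A single component of the replicate differences, called the within-group component here, took up 66.4% of the variance within groups, and the progesterone arrays stood near its ends at 21.8 and -24.7. Of 8 astrocyte and glioma markers 7 lay above the level under which 95% of 341 olfactory receptor genes fell (6.22), with the filament gene GFAP at 7.54, and the water channel gene AQP4, at 4.19, did not. Above it also lay 2 of 3 neuron, 0 of 3 oligodendrocyte, 1 of 4 leukocyte, 1 of 4 endothelial and 2 of 4 epithelial markers, and the leukocyte gene PTPRC was at 3.44. The summed level of the astrocyte markers ran from 77.1 to 77.7 on the arrays without RU-486 and from 77.1 to 78.0 on those with it.

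All 35 members were expressed above the olfactory receptor level. Their mean levels ran from 7.02 for STARD4 to 13.3 for SCD, with a median of 10.7, compared with a median of 7.74 over all genes. Levels of different probe sets are not comparable per length, so that no order between the genes is drawn from them. The median member spanned 0.35 log2 units from its lowest to its highest of the 8 arrays, and the median gene 0.38. In the limma F test over the 4 groups 0 of 35 members passed at an adjusted p under 0.05, as did 0% of all genes. 3 members, STARD4, NPC1 and SQLE, had an unadjusted p under 0.05 (8.57% of 35), against 7.63% of all genes, which is near the background. The smallest limma adjusted p among the members was 0.639.

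**Figure D1:**
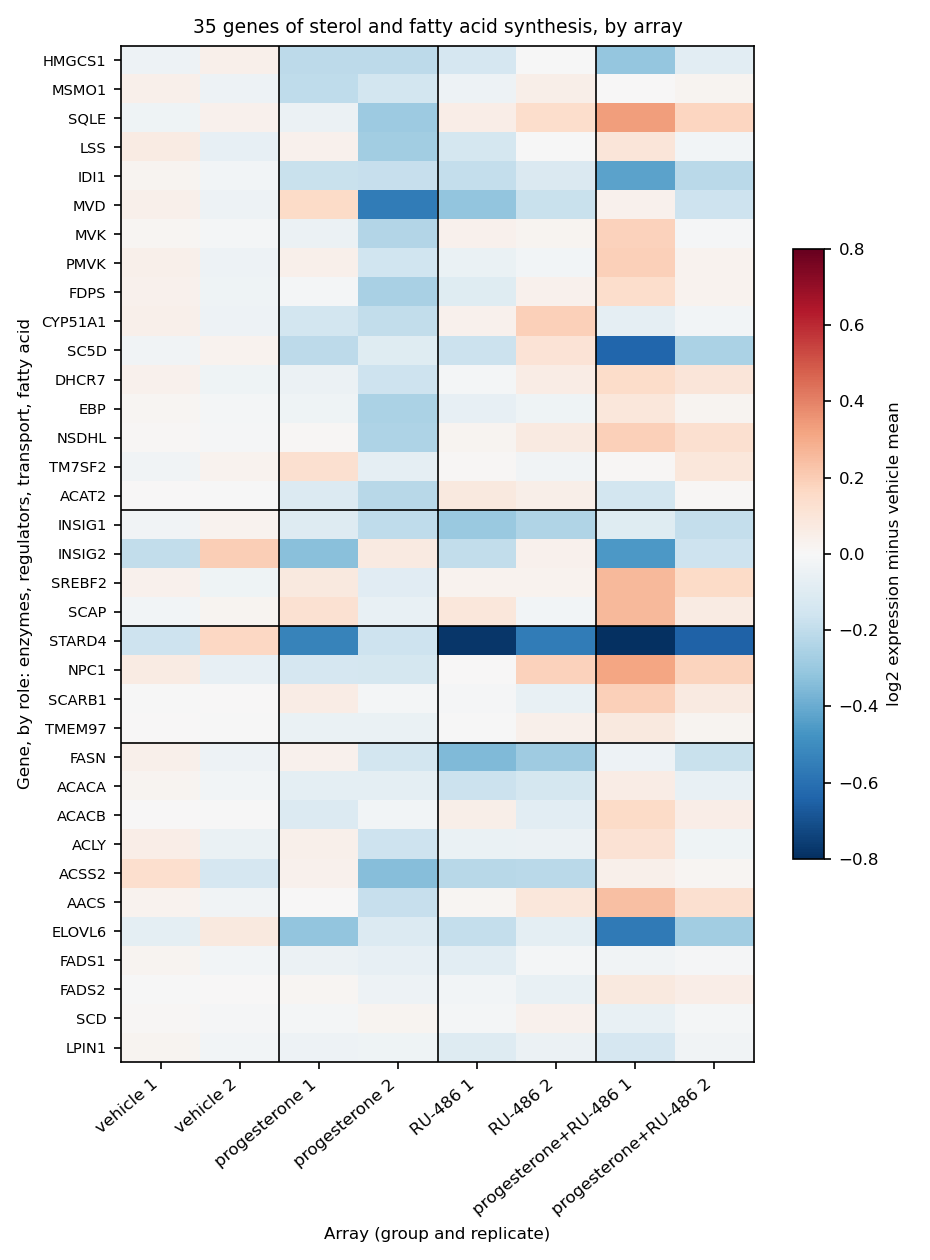
Each cell is the log2 expression of 1 gene on 1 array minus that gene's mean over the 2 vehicle arrays, with genes in rows by role and the 8 arrays in columns. Replicate 2 of progesterone is below the vehicle mean for 33 of 35 genes, and STARD4 is the deepest blue on the 4 arrays with RU-486.

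Under progesterone alone most members had a lower mean than under vehicle, by small amounts. Of the 35 members 31 were below 0, compared with 48.8% of all genes, and the median difference was -0.14 for the sterol members and -0.06 for the fatty acid members, where that of all genes was 0.004. Among the sterol members 21 of 24 were lower, and among the fatty acid members 10 of 11. For 19 of the 35 members both progesterone arrays lay under both vehicle arrays (54.3%), against 15.8% of all genes, and for 0 members did they lie above, against 16.3%. None passed: limma called 0 members and 0% of all genes at an adjusted p under 0.05, and 0 members had an unadjusted p under 0.05, against 6.13% of all genes. The smallest p were those of MSMO1, STARD4 (-0.35 ± 0.17, SE) and HMGCS1 in the sterol arm and of ELOVL6 (-0.21 ± 0.13), ACSS2 (-0.15 ± 0.14) and ACACA (-0.079 ± 0.08) in the fatty acid arm, at limma adjusted p of 0.741 to 0.828. The count depended on the array. Progesterone replicate 2 was below the vehicle mean for 33 of 35 members and for each of the 16 sterol pathway enzymes, whereas replicate 1 was below it for 22 and 11 of them. Without progesterone replicate 2, 16 of 24 sterol members and 6 of 11 fatty acid members were lower, with medians of -0.048 and -0.016, and limma called 1228 genes, 0 of them members. Over all genes, 55.0% lay below the vehicle mean on replicate 2 and 42.8% on replicate 1, and the part of this replicate difference in the result was not tested.

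**Figure D2:**
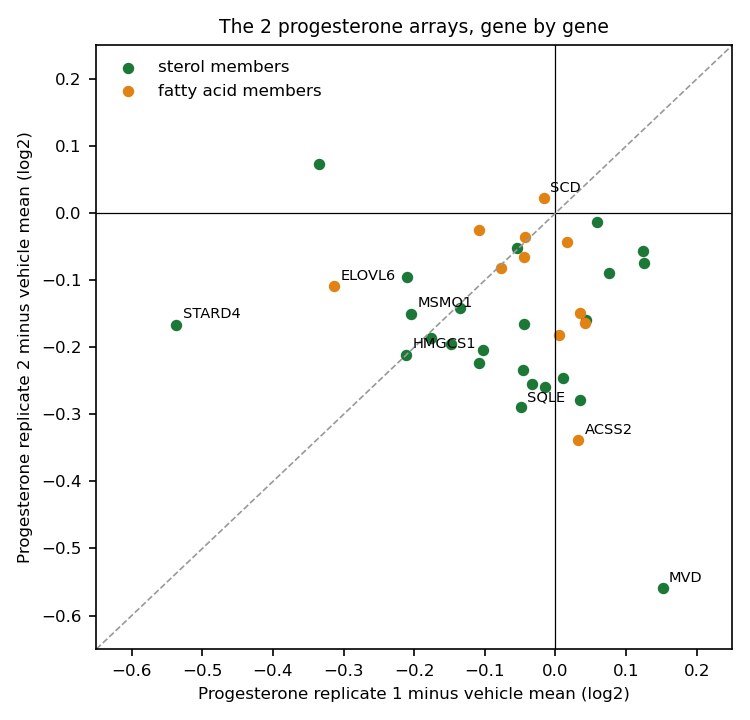
Each point is 1 of the 35 genes, with its log2 level on progesterone replicate 1 (horizontal axis) and replicate 2 (vertical axis), each minus the vehicle mean; the dashed line marks equality. Most points lie under 0 on the vertical axis, while 13 lie above 0 on the horizontal one, and MVD is farthest from the line.

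Under RU-486 alone 22 of 35 members had a lower mean than under vehicle, and none passed. The median difference was -0.019 for the sterol members, 13 of 24 being lower, and -0.048 for the fatty acid members, 9 of 11 being lower. The median of all genes was 0.014, with 44.7% lower. STARD4, INSIG1 and FASN had an unadjusted p under 0.05, all 3 of them lower (8.57% of 35), against 3.1% of all genes in either direction and 0.95% lower. The next smallest p were those of IDI1 (-0.15 ± 0.09, SE) in the sterol arm and of ACACA and ACSS2 in the fatty acid arm, and MVD, a sterol enzyme, differed by -0.25. limma called 0 members and 0% of all genes. Arrays did not overlap for 12 members that were lower (34.3%, against 15.7% of all genes) and for 4 that were higher (11.4%, against 24% of all genes).

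Both steroids together, set against vehicle, gave members on either side of 0. The sterol median was 0.051 and that of the fatty acid members -9.74e-05, under the median of all genes of 0.074. Arrays did not overlap for 12 members that were higher (34.3%, against 42.7% of all genes) and for 9 that were lower (25.7%, against 18.8%). 5 members had an unadjusted p under 0.05 (14.3%), against 13.2% of all genes, which is near the background: STARD4, IDI1, SC5D and ELOVL6 were lower and NPC1 was higher. In the fatty acid arm AACS (0.18 ± 0.09, SE) and ACACB (0.10 ± 0.09) came next after ELOVL6. Without combination replicate 1 the sterol median was 0.022, and without replicate 2 it was 0.084. limma called 0 members and 0% of all genes.

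Set against progesterone alone, the combination had higher means for most sterol members. Of the 24 sterol members 20 were higher, with a median of 0.13, and of the 11 fatty acid members 7 were higher, with a median of 0.079, where the median of all genes was 0.030 and 56.7% were higher. 7 members had an unadjusted p under 0.05, all 7 of them higher (20%), against 14.6% of all genes in either direction and 10.1% higher. Arrays did not overlap for 17 members that were higher (48.6%, against 28.1% of all genes) and for 3 that were lower (8.57%, against 12.6%). The 7 were SQLE, NPC1, NSDHL, AACS, DHCR7, MSMO1 and SREBF2. In the fatty acid arm ACACB (0.17 ± 0.09, SE) and ELOVL6 (-0.21 ± 0.13) came next after AACS. limma called 0 members and 0% of all genes at an adjusted p under 0.05. Without progesterone replicate 1, which leaves 1 progesterone array, SQLE differed by 0.54 and NSDHL by 0.40. With each array left out in turn, SQLE ran from 0.30 to 0.54 and NSDHL from 0.15 to 0.40. Without progesterone replicate 2 the medians were 0.069 for the sterol and -0.0012 for the fatty acid members.

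Set against RU-486 alone, the combination had higher means for 17 of 24 sterol members (median 0.10) and 8 of 11 fatty acid members (median 0.11), compared with 61.1% of all genes (median 0.037). Arrays did not overlap for 16 members that were higher (45.7%, against 33.3% of all genes) and for 6 that were lower (17.1%, as for 17.1% of all genes). Only SC5D among the 35 had an unadjusted p under 0.05 in this comparison (2.86%, against 4.75% of all genes), at -0.41 ± 0.15 (SE), and limma called 0 members and 0% of all genes. SCARB1 (0.16 ± 0.08) and SREBF2 (0.18 ± 0.09) came next in the sterol arm, and ELOVL6 (-0.28 ± 0.13), FASN (0.21 ± 0.10) and ACACA (0.16 ± 0.08) led the fatty acid arm. The sterol median was 0.054 without combination replicate 1, and leaving out 1 array moved it up to 0.14. The progesterone difference was thus below 0 for 31 of 35 members without RU-486, against 48.8% of all genes. With RU-486 it was above 0 for 25 of 35, where 61.1% of all genes were above 0 too. The interaction, which is the difference between those 2 differences, was above 0 for 31 of 35 members, with a median of 0.19 for the sterol and 0.15 for the fatty acid members, against 52.4% of all genes with a median of 0.012. INSIG1 had an unadjusted p under 0.05 (2.86%, against 5.28% of all genes), and limma called 0 members and 0% of all genes. The 3 comparisons with progesterone alone and the interaction share the progesterone arrays. Without progesterone replicate 2 the interaction medians were 0.10 and 0.089, and 4 sterol members were below 0 where 2 had been; without combination replicate 2, 7 were. The smallest p were those of INSIG1 (0.28 ± 0.12, SE), SQLE (0.33 ± 0.15) and NPC1 (0.29 ± 0.14) in the sterol arm and of ACACA (0.24 ± 0.11), ACSS2 (0.40 ± 0.20) and FASN (0.27 ± 0.14) in the fatty acid arm, all at a limma adjusted p of 0.828.

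RU-486 set directly against progesterone, each given alone, had higher means for 19 of 24 sterol members (median 0.082, or 0.031 without progesterone replicate 2) and 6 of 11 fatty acid members (median 0.0071), the median of all genes being -0.0037. Arrays did not overlap for 11 members that were higher (31.4%, against 17% of all genes) and for 5 that were lower (14.3%, against 10.3%). 5 members had an unadjusted p under 0.05 (14.3%, against 4.63% of all genes). 4 members were higher at an unadjusted p under 0.05 (11.4%, against 3.21% of all genes): CYP51A1 by 0.28 ± 0.09 (SE), SQLE by 0.27 ± 0.11, ACAT2 by 0.23 ± 0.09 and NPC1 by 0.23 ± 0.10. On another probe set of CYP51A1 the arrays overlapped, at 10.30 and 10.01 in progesterone and 10.22 and 10.32 in RU-486. FASN differed by -0.26 ± 0.10, AACS by 0.14 ± 0.09 and ACACA by -0.078 ± 0.08, and limma called 0 members and 0% of all genes.

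**Figure D3:**
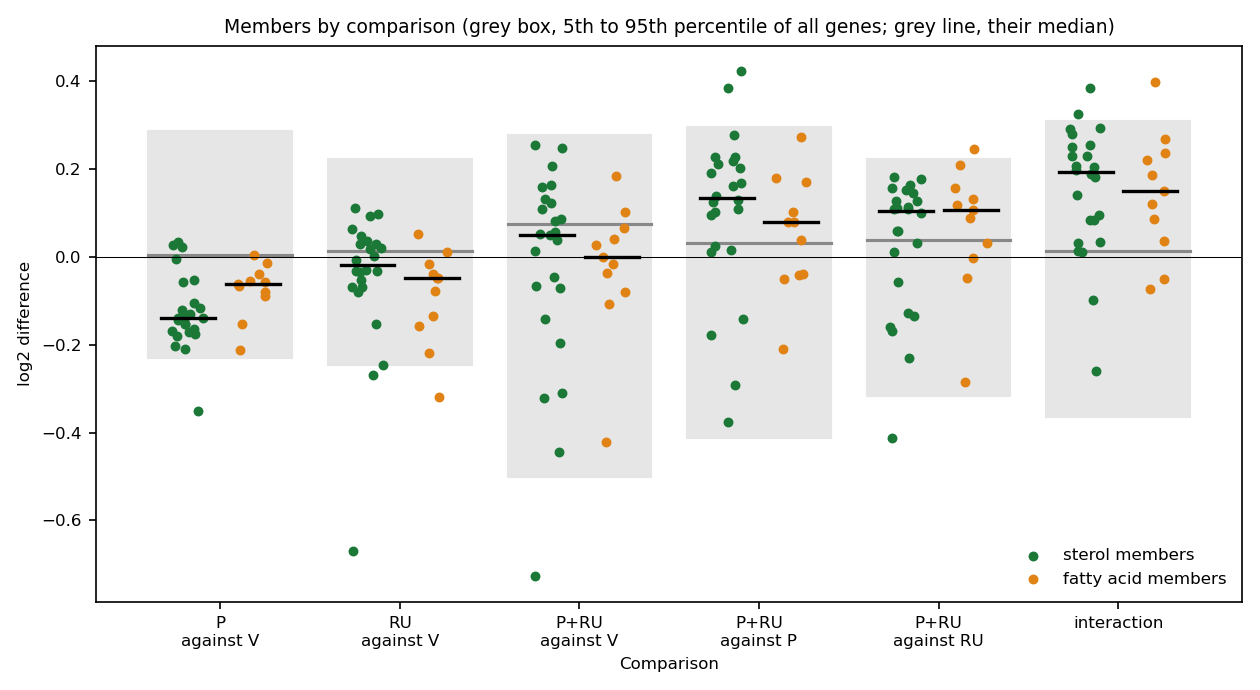
Each point is the log2 difference of 1 gene in the comparison named under the axis (V, vehicle; P, progesterone; RU, RU-486), green for the 24 sterol members and orange for the 11 fatty acid members, with black lines at their medians. The sterol median is -0.14 for progesterone against vehicle and 0.19 for the interaction, and single genes in each comparison lie outside the grey box that holds the central share of all genes.

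The sterol pathway runs from acetyl-CoA to mevalonate, squalene, lanosterol and cholesterol, and 16 of its enzymes were among the members. HMGCS1, which makes HMG-CoA, was measured at 10.79 and 10.88 in vehicle, 10.63 and 10.63 in progesterone, 10.70 and 10.84 in RU-486 and 10.53 and 10.75 in the combination. Both progesterone arrays lay under both vehicle arrays, and the RU-486 arrays overlapped with vehicle. The difference for progesterone was -0.21 ± 0.10 (SE; limma adjusted p = 0.741). ACAT2, the cytosolic thiolase one step earlier, differed by -0.17 ± 0.09 under progesterone. Of the 4 enzymes from mevalonate to isopentenyl and dimethylallyl units (the kinases MVK and PMVK, the decarboxylase MVD and the isomerase IDI1), IDI1 had the smallest p. It was at 11.29 and 11.25 in vehicle, 11.09 and 11.08 in progesterone, 11.08 and 11.15 in RU-486 and 10.84 and 11.05 in the combination. Each treated array lay under both vehicle arrays, and the difference for the combination was -0.32 ± 0.09 (limma adjusted p = 0.374). MVD showed the widest replicate gap of the members, at 9.90 and 9.19 in the 2 progesterone arrays, and MVK and PMVK spanned 0.42 and 0.35 over the 8 arrays.

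SQLE, the squalene epoxidase that starts the oxygen-requiring part of the pathway, was at 11.42 and 11.49 in vehicle, 11.41 and 11.17 in progesterone, 11.51 and 11.60 in RU-486 and 11.79 and 11.63 in the combination. All 4 arrays with RU-486 lay above all 4 without it. Over those 4 against 4 arrays, progesterone being balanced, SQLE was higher by 0.26 ± 0.08 (1.20-fold; limma adjusted p = 0.421). NSDHL, a decarboxylating sterol dehydrogenase, also had no overlap between the arrays with and without RU-486, and was higher by 0.16 ± 0.07. These were the 2 members without overlap on the higher side (5.71%, against 4.51% of all genes), which is near the background. MSMO1, the methylsterol oxidase, was at 12.14 and 12.06 in vehicle, 11.90 and 11.95 in progesterone, 12.06 and 12.15 in RU-486 and 12.10 and 12.12 in the combination. Only its progesterone arrays stood apart, by -0.18 ± 0.08 against vehicle (limma adjusted p = 0.741) and with the combination 0.19 above them.

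CYP51A1, the lanosterol demethylase, was at 11.01 and 10.93 in vehicle, 10.82 and 10.77 in progesterone, 11.002 and 11.16 in RU-486 and 10.90 and 10.94 in the combination. Its average progesterone difference, over the 4 arrays with and the 4 without the hormone, was -0.17 ± 0.06 (limma adjusted p = 0.722), and a second probe set of the gene, with a mean of 10.3, gave -0.021 for the average RU-486 difference where the first gave 0.12. SC5D, the lathosterol desaturase, was at 10.96 and 11.02 in vehicle, 10.78 and 10.90 in progesterone, 10.82 and 11.10 in RU-486 and 10.36 and 10.74 in the combination. The combination arrays were lowest, and their difference from vehicle was -0.44 ± 0.15 (limma adjusted p = 0.374). SC5D was lower on replicate 1 in all 4 groups, and its combination arrays were 0.38 apart. Of the other enzymes, DHCR7, which makes cholesterol in the last step, differed by 0.12 for the average RU-486 effect and EBP, a sterol isomerase, by 0.075. The prenyl synthase FDPS differed by 0.093, the cyclase LSS by 0.045 and the reductase TM7SF2 by 0.0092. For these 5 the intervals of the average RU-486 difference included 0. FDPS is also matched by 2 probe sets shared with a pseudogene, which differed by 0.12 and 0.14.

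Of the 4 regulators, INSIG1 had its lowest arrays under RU-486 alone and SREBF2 its highest in the combination. INSIG1, the SREBP target that retains SCAP, was at 11.14 and 11.20 in vehicle, 11.06 and 10.96 in progesterone, 10.87 and 10.93 in RU-486 and 11.07 and 10.98 in the combination. Every treated array was under both vehicle arrays and RU-486 alone was lowest, with a difference of -0.27 ± 0.08 (SE; 95% interval -0.46 to -0.075; limma adjusted p = 1.00). SREBF2 was at 10.66 and 10.60 in vehicle, 10.70 and 10.54 in progesterone, 10.66 and 10.66 in RU-486 and 10.89 and 10.78 in the combination. The combination arrays were above all others, by 0.21 ± 0.09 against vehicle (limma adjusted p = 0.381), and RU-486 alone differed from vehicle by 0.029 (95% interval -0.18 to 0.24). SCAP was at 9.92 in the combination and between 9.76 and 9.79 in the other group means. INSIG2, the second INSIG gene, had replicate gaps of 0.23 to 0.41 in the 4 groups, with replicate 1 the lower in each, and differences of -0.31 to -0.080 against vehicle.

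Of the 4 sterol transport members, STARD4 showed the largest difference of all 35. STARD4 carries cholesterol between membranes and is a known SREBP-2 target. It was measured at 7.29 and 7.63 in vehicle, 6.92 and 7.29 in progesterone, 6.68 and 6.90 in RU-486 and 6.65 and 6.82 in the combination. The 4 arrays with RU-486 were all under the 4 without it, and the progesterone arrays lay between (7.11 ± 0.26, SD, n = 2). It was the 1 member without overlap on the lower side (2.86%, against 1.09% of all genes). RU-486 alone differed from vehicle by -0.67 ± 0.17 (SE; 1.59-fold; 95% interval -1.06 to -0.28; limma adjusted p = 1.00), and the combination by -0.73 ± 0.17 (1.66-fold; limma adjusted p = 0.374). Over 4 against 4 arrays the difference was -0.52 ± 0.12 (limma adjusted p = 0.336). STARD4 was lower on replicate 1 than on replicate 2 in all 4 groups, and with the score on the within-group component as a covariate its average RU-486 difference was -0.40 (limma adjusted p = 0.117). With each array left out in turn, that average difference ran from -0.62 to -0.43.

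NPC1, which moves cholesterol out of lysosomes, was at 9.95 and 9.83 in vehicle, 9.76 and 9.75 in progesterone, 9.90 and 10.07 in RU-486 and 10.21 and 10.07 in the combination. The progesterone arrays were lowest and the combination had the highest mean, though RU-486 replicate 2 lay at the level of combination replicate 2. The combination was above progesterone by 0.38 ± 0.10 (1.31-fold; limma adjusted p = 0.266) and above vehicle by 0.25 ± 0.10. SCARB1, a lipoprotein receptor, was within 0.25 over the 8 arrays, and TMEM97, a sterol-regulated membrane protein, within 0.13.

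**Figure D4:**
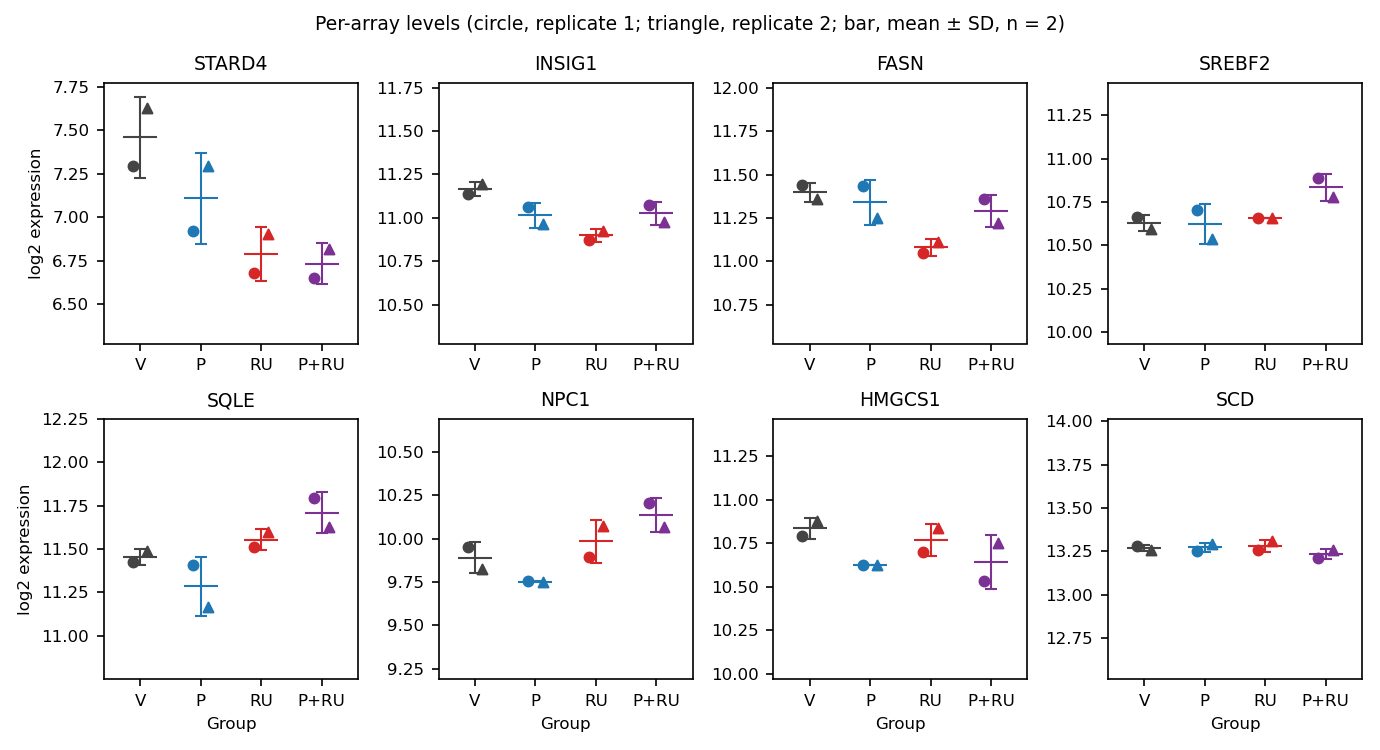
Log2 expression of 8 genes in vehicle (V), progesterone (P), RU-486 (RU) and the combination (P+RU), with circles for replicate 1, triangles for replicate 2 and bars for the mean and SD of 2 arrays. All panels span 1.5 log2 units. STARD4 is at 6.65 to 6.90 on the arrays with RU-486 and at 6.92 to 7.63 on the others, FASN is lowest under RU-486 alone, and SCD stays between 13.21 and 13.31.

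Fatty acid synthesis starts from citrate or acetate, and 11 of its genes were members. FASN, the fatty acid synthase, was at 11.44 and 11.36 in vehicle, 11.43 and 11.25 in progesterone, 11.05 and 11.11 in RU-486 and 11.36 and 11.22 in the combination. The RU-486 arrays lay under all others, by -0.32 ± 0.10 against vehicle (SE; 1.25-fold; 95% interval -0.55 to -0.090; limma adjusted p = 1.00), while the combination differed from vehicle by -0.11 ± 0.10. ACACA, the carboxylase that makes malonyl-CoA, was at 10.71 and 10.66 in vehicle, 10.61 and 10.60 in progesterone, 10.51 and 10.54 in RU-486 and 10.74 and 10.63 in the combination. Its RU-486 arrays too were lowest, by -0.16 ± 0.08 against vehicle. ACSS2, which activates acetate, was at 10.03 and 9.76 in vehicle, 9.92 and 9.55 in progesterone, 9.67 and 9.68 in RU-486 and 9.93 and 9.90 in the combination. Its vehicle and progesterone arrays were 0.27 and 0.37 apart, and the RU-486 difference of -0.22 ± 0.14 did not exceed that gap.

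ELOVL6, which elongates palmitate, was at 10.85 and 11.01 in vehicle, 10.62 and 10.82 in progesterone, 10.74 and 10.85 in RU-486 and 10.37 and 10.65 in the combination. It was lower on replicate 1 in all 4 groups, as STARD4 was, and its combination difference was -0.42 ± 0.13 (limma adjusted p = 0.374), or -0.28 with the within-group component as a covariate (limma adjusted p = 0.477). AACS, which returns ketone bodies to lipid synthesis, was at 9.28 and 9.22 in vehicle, 9.26 and 9.07 in progesterone, 9.27 and 9.34 in RU-486 and 9.49 and 9.38 in the combination. The combination arrays were above all others, and the average RU-486 difference was 0.16 ± 0.07 (limma adjusted p = 0.447). SCD, the stearoyl-CoA desaturase, was at 13.28 and 13.26 in vehicle, 13.25 and 13.29 in progesterone, 13.26 and 13.31 in RU-486 and 13.21 and 13.26 in the combination. The combination arrays, at most 13.2556, lay narrowly under both vehicle arrays (13.2586 or more) and both RU-486 arrays (13.2565 or more). Every other pair of groups overlapped, and the 95% interval of the average RU-486 difference of SCD ran from -0.14 to 0.11. ACACB, the mitochondrial carboxylase form, ACLY, which splits citrate, the desaturases FADS1 and FADS2 and the phosphatidate phosphatase LPIN1 had average RU-486 differences from -0.060 to 0.077.

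Over all arrays with RU-486 against all without, 17 of 24 sterol members were higher (median 0.070) and 4 of 11 fatty acid members (median -0.013), where 62.5% of all genes were higher (median 0.032). 5 members had an unadjusted p under 0.05 (14.3%), against 11% of all genes: SQLE, NPC1 and AACS were higher and STARD4 and FASN lower, and ELOVL6 (-0.17 ± 0.09, SE) came next in the fatty acid arm. With 1 array left out the sterol median ran from 0.026 (without progesterone replicate 2) to 0.12 (without progesterone replicate 1), and that of the fatty acid members from -0.024 to 0.0062, across 0. limma called 0 members and 6 genes of all (0.0326%). The difference of SQLE ran from 0.20 to 0.32 with each array left out in turn. Over all arrays with progesterone against all without, 18 of 24 sterol members were lower (median -0.011, or 0.020 without progesterone replicate 2) and 4 of 11 fatty acid members (median 0.021), where 38.8% of all genes were lower (median 0.030). 6 members, all lower, had an unadjusted p under 0.05 (17.1%), against 1.83% of all genes lower at that level. For 0 members did the arrays not overlap in either direction, against 154 of 18417 genes lower and 372 higher. The 22 members with a lower mean became 13 with quantile scaling, without progesterone replicate 2 or without combination replicate 2. They became 27 without progesterone replicate 1 or with the within-group component as covariate. The smallest fatty acid p after that of ELOVL6 (-0.25 ± 0.09, SE) were those of FASN (0.076 ± 0.07) and FADS2 (0.046 ± 0.05). The 6 were ACAT2, HMGCS1, IDI1, CYP51A1, SC5D and ELOVL6, and limma called 0 members and 0% of all genes.

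Other genes of the same pathways were counted from lists outside the members, and 0 of them passed in limma in any of the 9 comparisons or in the F test. Of 11 measured sterol genes (esterification, lysosomal release, isoprenoid side branches and electron donors) 0 had an F test p under 0.05, and the 3 with the smallest p were the esterifying enzyme SOAT1, the sterol reductase LBR and the electron donor POR. Of 29 measured fatty acid genes 5 did (17.2%, against 7.63% of all genes). FADS3, a desaturase family member, was higher in the combination than in vehicle by 0.33 ± 0.08, and ACSL1, an acyl-CoA synthetase, by 0.21 ± 0.08. OXSM, the mitochondrial ketoacyl synthase, had its lowest arrays under progesterone, at 8.79 and 8.84. Of 10 genes that process or turn over SREBPs, SREBF1 had the smallest p. SEC24A and SEC23A, coat proteins of vesicles leaving the endoplasmic reticulum, differed by -0.38 ± 0.13 and -0.29 ± 0.11 in the combination against vehicle. Both were lower on replicate 1 in all 4 groups.

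SREBF1, the gene of SREBP-1, differed more with RU-486 than any member but STARD4. It was at 10.78 and 10.81 in vehicle, 10.82 and 10.75 in progesterone, 10.29 and 10.19 in RU-486 and 10.41 and 10.36 in the combination. All 4 arrays with RU-486 were under all 4 without it, and the difference was -0.47 ± 0.06 (SE; 1.39-fold; limma adjusted p = 0.0794). This difference passed among genes above the olfactory receptor level (limma adjusted p = 0.0468) and with a trended robust prior (limma adjusted p = 0.00729). It also passed without progesterone replicate 1, a fit that leaves 1 progesterone array. Progesterone alone differed from vehicle by -0.0056 (95% interval -0.19 to 0.18). The liver X receptor targets ABCA1, the cholesterol exporter, and MYLIP, a ligase that degrades lipoprotein receptors, differed with RU-486 by -0.74 ± 0.10 (limma adjusted p = 0.112) and, for MYLIP, -0.32 ± 0.06 (adjusted p in limma 0.277). Among the 17 alternatives for this average difference, ABCA1 passed in 4, SREBF1 in 3 and MYLIP in 1. Of the 6 measured genes of the liver X receptor list, SREBF1 included, 5 had a lower mean with RU-486 and 4 an unadjusted p under 0.05, and limma called 0. The other 3 were ABCG1, a sterol exporter (-0.23), LPCAT3, a phospholipid acyltransferase (-0.065), and NR1H3, the receptor gene itself (0.025). Set beside these, FASN differed by -0.18 and SCD by -0.013 over the same arrays. The ABCG1 average covered 2 unlike differences. Its mean was 7.27 in vehicle and 6.89 in RU-486, but 7.28 in progesterone and 7.20 in the combination, and its RU-486 arrays were 0.31 apart.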

How the data were processed

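Total RNA of U373 cells was hybridised to 8 Affymetrix Human Gene 1.0 ST arrays, and groups and replicate numbers came from the sample titles. The authors deposited log2 expression values per probe set, and the tools listed per the submitters' processing notes are RMA, oligo and limma, with no version. RMA brings arrays toward a common distribution and compresses differences of dim genes. The medians of the deposited arrays still ran from 6.93 to 7.02. Of 33297 probe sets 19460 pair with 1 symbol, and the highest-mean probe set per gene left 18417 genes, with no filter on dim genes. The model was limma 3.58.1 under R 4.3.3, with lmFit then eBayes, a mean for each of the 4 groups and a shared spread (4 residual degrees of freedom). P-values were adjusted by Benjamini-Hochberg over all genes within a comparison, and called under 0.05. The pipeline was tested on simulated data whose noise was independent between genes, without the shared within-group component seen in these arrays. Promoters came from RefSeq (GRCh38.p14). Per-array values are given for the 5 sterol and 5 fatty acid members with the smallest F test p and for HMGCS1, INSIG1, SREBF2, FASN and SCD. Each comparison names its 3 smallest p per arm, and each outside list its 3 smallest in the F test. The per-array values of MSMO1 and SC5D, the values of the other members and those of members counted at an unadjusted p under 0.05 were added after they were seen. The members and lists were chosen with earlier results of these data known, so that lists are described by counts and medians without a test. Alternatives were a block on replicate number, omission of each array, fitting 2 groups alone, array weights, quantile or median scaling, other probe set rules, a filter on dim genes, a trended robust prior and the within-group component as covariate.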

Additional observations from a re-analysis of the deposited data

Results flagged for a closer look

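For some members the arrays moved one way under a steroid given alone and the opposite way when the other steroid was present, with no overlap in either case. The limma interaction test called none of them (adjusted p 0.828 to 0.830), and such a pattern was seen in 5.25% of all genes for RU-486 and in 8.25% for progesterone. For RU-486 4 members met it: EBP with an interaction of 0.254 log2 units, SCARB1 with 0.140, ACACA with 0.236 and FADS2 with 0.119. Each was lower with RU-486 alone than in vehicle and higher in the combination than in progesterone. The differences for RU-486 alone were small, at -0.052 for EBP, -0.032 for SCARB1, -0.16 for ACACA and -0.040 for FADS2. For SCARB1 the nearest arrays lay at 11.064 in RU-486 and 11.0645 in vehicle. For progesterone 6 members met it: SQLE with 0.325, DHCR7 with 0.205, EBP with 0.254, INSIG1 with 0.280, ACACA with 0.236 and ACACB with 0.186, each lower under progesterone than in vehicle and higher in the combination than under RU-486 alone. Both comparisons of each pair rest on groups of 2 arrays.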

How the results depend on the processing

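Of 1113 gene values recomputed under the alternatives, 1098 kept their direction and their side of the threshold, 14 passed where they had not, and 1 turned: ACSS2 under progesterone against vehicle was 0.033 without progesterone replicate 2 and -0.34 without replicate 1, a fit that rests on 1 progesterone array assumed to vary like the other groups. Counts of genes called depended on single arrays. With each array left out in turn they ran from 0 to 1228 for progesterone against vehicle, from 0 to 1090 for the combination against progesterone and from 0 to 998 for the average RU-486 effect, the highest values being without progesterone replicate 2, 1 and 1. The average RU-486 count was 6, and it was 11 with each array shifted to the same median, 0 over all probe sets, 12 above the olfactory receptor level, 43 with a trended robust prior and 11 with the component as covariate. Where 0 had been called, array weights gave 3 for RU-486 and 7 for the combination against vehicle. The trended prior gave 4 in the F test, 17 for the combination against progesterone and 1 for RU-486 against progesterone. The covariate gave 1, 17 and 2 in the same order, and the median shift gave 1 for the combination against progesterone. The replicate numbers are shared by the groups: deviations of replicate 1 from the group mean correlated at 0.20 to 0.51 across genes between groups, and with the replicate block the combination against vehicle called 1 gene and no other count changed. Sterol medians with an array left out ran from -0.18 to -0.048 for progesterone against vehicle, 0.069 to 0.20 for the combination against progesterone, 0.031 to 0.15 for RU-486 against progesterone and 0.10 to 0.22 for the interaction. Fatty acid medians ran from -0.096 to -0.016, from -0.0012 to 0.092 and from 0.089 to 0.22 for the same comparisons without the third, and from 0.069 to 0.16 for the combination against RU-486. With the median shift the fatty acid median was -0.11 for progesterone against vehicle and 0.21 for the interaction, and with quantile scaling it was 0.023 for the combination against progesterone. Quantile scaling moved the members below 0, of 35, from 4 to 9 for the interaction and from 10 to 16 for RU-486 against progesterone. For the combination against progesterone they went from 8 to 11, and for progesterone against vehicle from 31 to 29. They stayed at 22 for RU-486 and at 15 for the combination against vehicle. The causes were not tested. The counts of members below 0 with arrays left out were chosen after seeing the data. The number of arrays, 2 per group, limits what can pass.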
